A study of Mus musculus with 229 samples.

Results

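Axon guidance ligands and receptors were followed across mouse cortical cells and mouse glioblastoma cells. Members were chosen by gene symbol: semaphorins, plexins, neuropilins, ephrins, Eph receptors, slits, Robo receptors, netrins and Unc5 receptors. The rule took in 73 symbols. Of these, 68 are guidance ligands or receptors and were put in 12 role groups. Unc50, Unc5cl, Plxna4os1, Plxna4os2 and Plxna4os3 match the rule but are by name no guidance ligands or receptors, and were listed apart. Member rows numbered 67 of 20465 genes in the Drop-seq tumour table, 74 of 27998 in the 10x tumour table, 69 of 22105 and 70 of 25995 in the PDGFRa-GFP and hGFAP-GFP Drop-seq tables, and 72 of 46523 and 71 of 24279 in the PDGFRa-GFP and hGFAP-GFP C1 tables. Epha6, Epha8 and Ntn5 were not in the Drop-seq tumour table and were not analysed there, and the same held for Ntn3 in the 10x table.

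The series held 229 samples in 10 groups. Glioblastoma tissue from the cerebral cortex region gave a Drop-seq library labelled dpi 25, with no genotype label, and a 10x library labelled dpi 35, whose genotype label reads GBM. The labels do not expand dpi. Cortical cells with a normal PDGFRa genotype and a PDGFRa-gfp reporter gave a Drop-seq library at postnatal days 1 to 3 and C1 cells at P6 (53 cells) and P3 (60 cells). Cells with a normal hGFAP genotype and an hGFAP-gfp reporter gave a Drop-seq library at P5 to 6 and C1 cells at P4 to P6 (61 cells) and P3 (49 cells). The strain field of the C1 PDGFRa cells names the hGFAP reporter, against their titles, and the titles were followed. Cortical cells were sorted as GFP-positive and negative for the dead-cell dye 7-AAD, whereas tumour tissue was digested and cleared of red blood cells with no sort stated. ATAC-seq of PDGFRa-GFP cells, at E14.5 and P5 by title though stage and genotype fields say otherwise, came as 1 pooled list of open chromatin intervals. No animals are named in the labels.

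The droplet tables held 4955 cells with 11544233 unique molecular identifiers (UMIs, each marking 1 captured RNA molecule) for dpi 25, 6054 cells with 51194749 UMIs for dpi 35, 3184 cells with 8166699 UMIs for PDGFRa-GFP and 815 cells with 4196024 UMIs for hGFAP-GFP. Median UMIs per cell were 2063 and 6582 in the tumour libraries and 2013.5 and 4167 in the cortical ones. Every droplet group was 1 library and every C1 set was taken as 1 sample, so no comparison between groups has a replicate check and none was tested. Intervals below are exact 95% intervals and cover counting error only. Levels in whole libraries are given as CPM, the UMIs of a gene scaled to the UMI total of the library, and in such sums fewer cells of a type and less RNA per cell cannot be told apart. A member was called when its CPM ratio reached 2-fold in either direction and the libraries compared held at least 20 UMIs of it in sum.

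Guidance proteins steer growing axons and migrating cells by attraction or repulsion. Secreted class 3 semaphorins bind neuropilins, which signal through plexins, while membrane semaphorins bind plexins directly. Ephrins and Eph receptors signal by cell contact, and both partners can respond. Slits repel cells that carry Robo receptors, and netrins attract or repel depending on the Dcc and Unc5 receptors present. Several of these families are also used by blood vessels, immune cells and oligodendrocyte precursor cells (OPCs), the dividing cells that give rise to myelinating oligodendrocytes.

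Summed over the 68 guidance genes, the level was 582.2 CPM in the dpi 25 library, 678.4 CPM in the dpi 35 library, 1004 CPM in PDGFRa-GFP cells and 1159 CPM in hGFAP-GFP cells. The role groups did not move as 1 block. EphA receptors summed to 22.52 and 24.08 CPM in the dpi 25 and dpi 35 libraries, against 142.4 CPM in PDGFRa-GFP and 198.5 CPM in hGFAP-GFP cells. B-type ephrins summed to 25.99 and 21.15 CPM in the tumour libraries, against 144 CPM in PDGFRa-GFP and 93.9 CPM in hGFAP-GFP cells. For Robo receptors the sums were 10.13 and 17.31 CPM in the tumour libraries and 75.06 and 65.06 CPM in the PDGFRa-GFP and hGFAP-GFP libraries. These 3 groups were low in both tumour libraries, on 2 platforms, while neuropilins stood the other way. The dpi 35 levels are set beside the others without calls, since the platform differs. Neuropilins summed to 61.42 CPM at dpi 25 and 162.1 CPM at dpi 35, against 19.1 CPM in PDGFRa-GFP cells and 48.62 CPM in hGFAP-GFP cells. Membrane semaphorins summed to 172.2 and 174.4 CPM in the tumour libraries and 249.6 and 274.1 CPM in the cortical ones, and plexins to 119.2 and 154.6 CPM against 236.4 and 228.5 CPM. EphB receptors were also lower in both tumour libraries, at 18.8 and 22.54 CPM against 41.27 and 76.26 CPM. So were A-type ephrins, at 23.22 and 16.68 CPM against 35.02 and 39.8 CPM. Class 3 semaphorins followed neither line, with 75.36 CPM at dpi 25, 30.2 CPM at dpi 35, 21.8 CPM in PDGFRa-GFP cells and 80.79 CPM in hGFAP-GFP cells and with different members making up the sum in each library. Unc5 receptors were close in the 4 libraries, at 21.83, 22.01, 15.55 and 16.68 CPM in the same order.

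**Figure D1:**
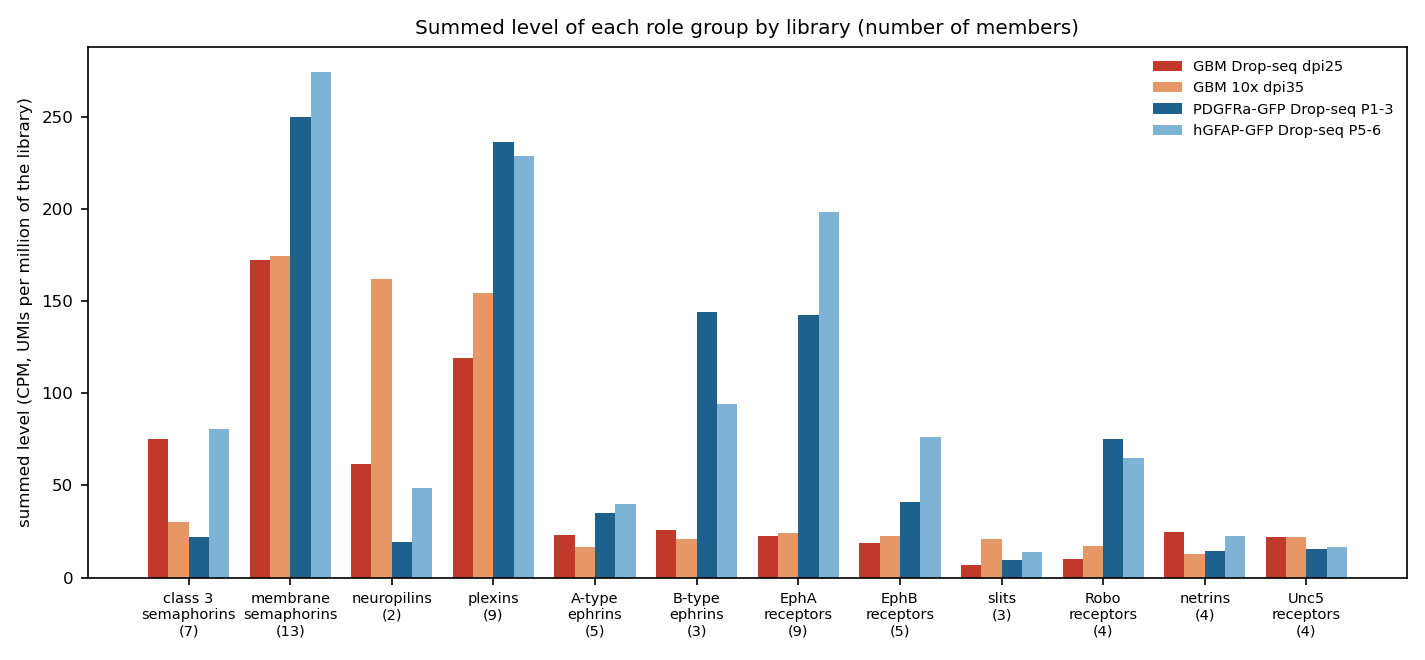
Summed CPM (y axis) of the guidance genes of each role group (x axis) in the 4 droplet libraries, 1 bar per library with no error bar, since each group is 1 library. EphA receptors, B-type ephrins and Robo receptors are among the groups lower in both tumour libraries than in both cortical libraries, and the neuropilin bar is highest at dpi 35, at 162.1 CPM.

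Open chromatin at the members' gene ends was read from the pooled ATAC list of PDGFRa-GFP cells, whose intervals were placed on mm10 positions. Of 70 protein-coding members with a position, 61 had an interval within 1 kb of the start or end of the gene, which is 87.1% of them against 61.9% of 21883 protein-coding genes. With intervals of −log10 q of at least 10 alone, 15 members had one, which is 21.4% against 28.6% of all genes, so the members' share stood above the background in the whole list and below it among the strongest intervals. Over the 300-base promoter window of any annotated start, 49 of 61 members with such a window had an interval, or 80.3% against 58.3% of 17491 genes. In the intervals at an annotated start, the authors' fold over background was 17.7 at Ephb3, 16.2 at Epha7, 15.7 at Efnb2, 13.6 at Plxna2 and 10.6 at Epha4. The 9 members with no interval within 1 kb of a gene end were Plxnb3, Robo4, Sema3a, Sema3g, Unc5cl, Epha6, Robo2, Slit2 and Unc5a. The last 4 had one over the promoter window of an annotated start, with a fold of 9.1 at Robo2 and 12.1 at Slit2. The list pools the E14.5 and P5 samples and has no tumour sample, so it gives no comparison between groups.

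Promoter sequences of 4 members are shown because their RNA levels carry the comparisons below: Efnb2 and Robo2 were low in the tumours, Sema5a and Plxnb3 were high in oligodendrocyte-like cells, and the 4 differ in the open chromatin over them. Each runs 5′ to 3′ on the strand of the gene across 250 bases before and 50 bases after an annotated start (RefSeq, GRCm38.p6), and capitals mark matches to CAGCTG, an E-box that neurogenic and oligodendrocyte bHLH factors can bind, and to GGGCGG or its reverse complement CCGCCC, the GC box of Sp factors. The Efnb2 window lies at chr8:8661193-8661492 on the minus strand, the Robo2 window at chr16:74411776-74412075 on the minus strand, the Sema5a window at chr15:32244563-32244862 on the plus strand and the Plxnb3 window at chrX:73756853-73757152 on the plus strand.
Efnb2: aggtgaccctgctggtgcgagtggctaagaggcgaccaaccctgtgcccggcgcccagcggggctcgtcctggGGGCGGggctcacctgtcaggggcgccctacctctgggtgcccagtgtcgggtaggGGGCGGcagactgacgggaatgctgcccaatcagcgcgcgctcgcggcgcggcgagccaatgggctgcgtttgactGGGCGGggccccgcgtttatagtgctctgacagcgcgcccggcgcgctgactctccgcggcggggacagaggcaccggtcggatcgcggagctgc
Robo2: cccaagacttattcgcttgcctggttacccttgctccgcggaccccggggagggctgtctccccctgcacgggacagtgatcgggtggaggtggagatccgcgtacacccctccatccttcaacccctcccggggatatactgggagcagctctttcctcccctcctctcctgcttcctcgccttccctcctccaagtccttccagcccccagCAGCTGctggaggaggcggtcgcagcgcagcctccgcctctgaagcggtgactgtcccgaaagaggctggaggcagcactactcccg
Sema5a: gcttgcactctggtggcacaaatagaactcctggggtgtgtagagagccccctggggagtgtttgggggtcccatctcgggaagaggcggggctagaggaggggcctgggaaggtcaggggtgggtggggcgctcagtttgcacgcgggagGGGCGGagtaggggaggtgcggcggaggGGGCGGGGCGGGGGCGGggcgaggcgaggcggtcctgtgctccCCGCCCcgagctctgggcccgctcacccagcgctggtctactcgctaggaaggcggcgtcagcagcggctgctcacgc
Plxnb3: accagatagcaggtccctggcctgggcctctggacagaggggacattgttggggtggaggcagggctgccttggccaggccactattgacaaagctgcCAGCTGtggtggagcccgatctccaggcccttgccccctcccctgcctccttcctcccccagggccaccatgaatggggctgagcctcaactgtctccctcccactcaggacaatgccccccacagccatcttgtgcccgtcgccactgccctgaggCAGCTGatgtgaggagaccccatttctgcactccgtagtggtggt
The Efnb2 window held 3 GC boxes and lay inside an interval of 2350 bases with a fold of 15.7 and a −log10 q of 30.5. The Robo2 window, at the start of 1 of its annotated transcripts, held 1 CAGCTG and lay under an interval of 1214 bases with a fold of 9.1 and a −log10 q of 13. Sema5a had 4 GC boxes counted without overlap, with 1 more that shares a base with another, and an interval of 1057 bases with a fold of 6.57, and Plxnb3 had 2 CAGCTG matches and no interval. The C plus G share was 72.3%, 65%, 71.3% and 63.7% in the Efnb2, Robo2, Sema5a and Plxnb3 windows. Over 77 member windows CAGCTG occurred in 12, or 15.6%, the same share as in 21237 windows of all genes, 15.6%. A GC box, on either strand, occurred in 55 member windows, 71.4%, against 46.2% of all windows. A match describes letters and is not a bound site.

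Guidance genes in the dpi 25 tumour were set first against PDGFRa-GFP cortical cells. Robo2, Epha4, Plxna4 and Efnb2 had log2 ratios between −5.26 and −3.76, while Sema3d, Robo4, Plxnd1 and Efna1 had log2 ratios between 2.47 and 4.17. Of 59 members tested, 29 were at least 2-fold lower, 49.2% against 16.6% of 14162 genes, and 13 were at least 2-fold higher, 22% against 16.2% of all genes. The median log2 ratio was −0.98 over the tested members and −0.01 over all genes. Efna3, Epha1, Epha10, Robo3, Sema3f, Sema3g and Slit3 were listed in both tables with too few UMIs. A fixed list of 60 other guidance genes, such as adaptors and downstream enzymes, had 9 higher and 17 lower of 57 tested, with a median of −0.27.

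Robo2, a receptor for slits, had 1.732 CPM (20 UMIs) at dpi 25 and 1.016 CPM (52 UMIs) at dpi 35, against 66.24 CPM (541 UMIs) in PDGFRa-GFP and 52.43 CPM (220 UMIs) in hGFAP-GFP cells. Both tumour values lay far below both cortical values. The log2 ratio of dpi 25 over PDGFRa-GFP was −5.26 (interval −5.98 to −4.62). Robo1, the related receptor, had 3.811, 2.012, 7.224 and 12.15 CPM in the dpi 25, dpi 35, PDGFRa-GFP and hGFAP-GFP libraries and a log2 ratio of −0.92 against PDGFRa-GFP, within 2-fold. Robo4 is known as the Robo receptor of blood vessels, and it ran the opposite way. It had 4.418 CPM (51 UMIs) at dpi 25 and 14.18 CPM (726 UMIs) at dpi 35, against 0.2449 CPM (2 UMIs) in PDGFRa-GFP cells and 0 UMIs in hGFAP-GFP cells. The log2 ratio over PDGFRa-GFP was 4.17, with an interval of 2.25 to 7.26 that shows how little 2 UMIs fix it. Among the ligands, Slit1 had 0.7796 and 0.5665 CPM in the dpi 25 and dpi 35 libraries against 4.898 and 4.051 CPM in PDGFRa-GFP and hGFAP-GFP cells, a log2 ratio of −2.65 for dpi 25 over PDGFRa-GFP, while Slit2 stayed within 2-fold, with a log2 ratio of 0.81.

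EphA receptors were the group with the lowest median, a log2 ratio of −3.24 for dpi 25 over PDGFRa-GFP, with 4 of 5 tested members lower and 1 higher. Epha4, a receptor for both ephrin types, had 2.339 CPM (27 UMIs) and 5.215 CPM (267 UMIs) in the dpi 25 and dpi 35 libraries, against 60.24 CPM (492 UMIs) in PDGFRa-GFP and 106.3 CPM (446 UMIs) in hGFAP-GFP cells. Its log2 ratio was −4.69 (interval −5.3 to −4.13), and the tumour and cortical values were far apart. Epha7 had 0.3465 and 0.7618 CPM in the tumour libraries against 6.612 and 5.958 CPM in the cortical ones, and Epha5, another receptor of A-type ephrins, had 16.72 and 12.4 CPM against 69.67 and 79.84 CPM. Epha5 differed least of the 4 lower members, with a log2 ratio of −2.06 (interval −2.3 to −1.82). Epha2 was the higher one, at 2.599 and 5.176 CPM in the tumour libraries and 0.4898 and 0.9533 CPM in PDGFRa-GFP and hGFAP-GFP cells. Of the EphB receptors, Ephb1 and Ephb4 were lower, with log2 ratios of −2.61 and −1.93, and Ephb2, Ephb3 and Ephb6 were within 2-fold.

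Ephrins, the ligands of those receptors, split by member. Efnb2, a membrane-spanning ephrin also known from arteries, had 5.284 CPM (61 UMIs) at dpi 25 and 2.227 CPM (114 UMIs) at dpi 35, against 71.39 CPM (583 UMIs) in PDGFRa-GFP and 32.89 CPM (138 UMIs) in hGFAP-GFP cells, a log2 ratio of −3.76 over PDGFRa-GFP (interval −4.16 to −3.37). Efnb1 had 10.13 and 6.329 CPM in the tumour libraries against 52.78 and 48.38 CPM in the cortical ones, a log2 ratio of −2.38. Efnb3 was within 2-fold at −0.91, so the low B-type sum in the tumour came from Efnb1 and Efnb2. A-type ephrins are tethered to the membrane by a lipid anchor. Efna1, known from vessels and tumours, was higher at 9.529 and 6.524 CPM in the dpi 25 and dpi 35 libraries against 1.714 and 1.907 CPM in the cortical ones, a log2 ratio of 2.47 (interval 1.67 to 3.39). Efna5 and Efna4 were lower, with log2 ratios of −3.31 and −2.51, and Efna2 was within 2-fold at −0.71.

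Sema3d, a secreted semaphorin, had the highest log2 ratio of the 59 members after Robo4. It had 58.9 CPM (680 UMIs) at dpi 25 and 21.45 CPM (1098 UMIs) at dpi 35, against 5.633 CPM (46 UMIs) in PDGFRa-GFP and 4.766 CPM (20 UMIs) in hGFAP-GFP cells. The log2 ratio was 3.39 over PDGFRa-GFP (interval 2.95 to 3.85), and both tumour values were above both cortical values. Sema3a, a repellent of many axons, had 11.43 CPM at dpi 25 and 1.778 CPM at dpi 35, against 3.673 and 3.336 CPM in PDGFRa-GFP and hGFAP-GFP cells, so the dpi 25 value alone was above the cortical ones. Sema3c and Sema3b were lower at dpi 25, with log2 ratios of −2.36 and −3.24 over PDGFRa-GFP. Both neuropilins, the receptors of class 3 semaphorins, were higher. Nrp1 had 47.21 CPM (545 UMIs) and 113.6 CPM (5817 UMIs) at dpi 25 and dpi 35, against 13.47 CPM (110 UMIs) and 34.08 CPM (143 UMIs) in PDGFRa-GFP and hGFAP-GFP cells, a log2 ratio of 1.81 over PDGFRa-GFP. Nrp2 had 14.21 and 48.52 CPM in the tumour libraries against 5.633 and 14.54 CPM in the cortical ones, a log2 ratio of 1.33.

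Among the 13 membrane semaphorins, 8 were lower and 1 was higher in the dpi 25 tumour than in PDGFRa-GFP cells. Sema6a was the higher one, with 84.63 CPM (977 UMIs) and 42.09 CPM (2155 UMIs) in the dpi 25 and dpi 35 libraries, against 40.78 CPM (333 UMIs) in PDGFRa-GFP and 73.4 CPM (308 UMIs) in hGFAP-GFP cells. Its log2 ratio of 1.05 (interval 0.87 to 1.24) lay at the edge of the 2-fold rule, and the tumour values overlapped the cortical ones. Sema5a, which acts on axons through plexins, had 4.764 and 11.21 CPM in the tumour libraries against 36.86 and 30.98 CPM in the cortical ones, a log2 ratio of −2.95. Sema6c had 2.079 and 2.305 CPM in the tumour libraries and 20.08 and 17.87 CPM in the cortical ones, a log2 ratio of −3.27. Sema4b, Sema4c, Sema4g, Sema5b, Sema4a and Sema4f had log2 ratios between −1.87 and −1.16, whereas Sema4d, Sema6b, Sema6d and Sema7a were within 2-fold.

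Plexins, the semaphorin receptors, were lower in 6 and higher in 2 of 9 cases. Plxna4, a receptor used with neuropilins in neurons, had 1.213 CPM (14 UMIs) and 5.665 CPM (290 UMIs) in the dpi 25 and dpi 35 libraries, against 20.33 CPM (166 UMIs) and 15.25 CPM (64 UMIs) in PDGFRa-GFP and hGFAP-GFP cells, a log2 ratio of −4.07. Plxna2, Plxna3, Plxnb1, Plxnb2 and Plxnc1 had log2 ratios between −1.74 and −1.02, and Plxna1 was within 2-fold at −0.06. Plxnb2 was low at dpi 25 alone, with 14.73 CPM there and 70.94 CPM at dpi 35, against 35.02 and 31.22 CPM in PDGFRa-GFP and hGFAP-GFP cells. Plxnd1, known from developing vessels, had 11.43 and 20.98 CPM in the tumour libraries against 1.837 and 2.86 CPM in the cortical ones, a log2 ratio of 2.64. Plxnb3, known from oligodendrocytes, had 15.25 and 11.51 CPM against 6.367 and 3.336 CPM, a log2 ratio of 1.26. Both plexins were above their 2 cortical values in each tumour library.

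The netrin gene Ntn1 was higher in the dpi 25 tumour, as were the receptors Unc5b and Unc5c. Ntn1 had 16.89 CPM at dpi 25 and 11.51 CPM at dpi 35, against 4.408 CPM in PDGFRa-GFP and 7.15 CPM in hGFAP-GFP cells, a log2 ratio of 1.94 (interval 1.42 to 2.49). Unc5c had 13.77 and 14.98 CPM in the tumour libraries against 5.388 and 3.336 CPM in the cortical ones, a log2 ratio of 1.35. For Unc5b the values were 4.591 and 5.43 CPM against 1.959 and 2.145 CPM, a log2 ratio of 1.23. Unc5d was lower, with 2 UMIs at dpi 25 and 0.1732 CPM, against 5.878 CPM in PDGFRa-GFP cells, a log2 ratio of −5.08 with an interval of −8.17 to −3.15. Unc5a, Ntn3 and Ntn4 were within 2-fold.

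**Figure D2:**
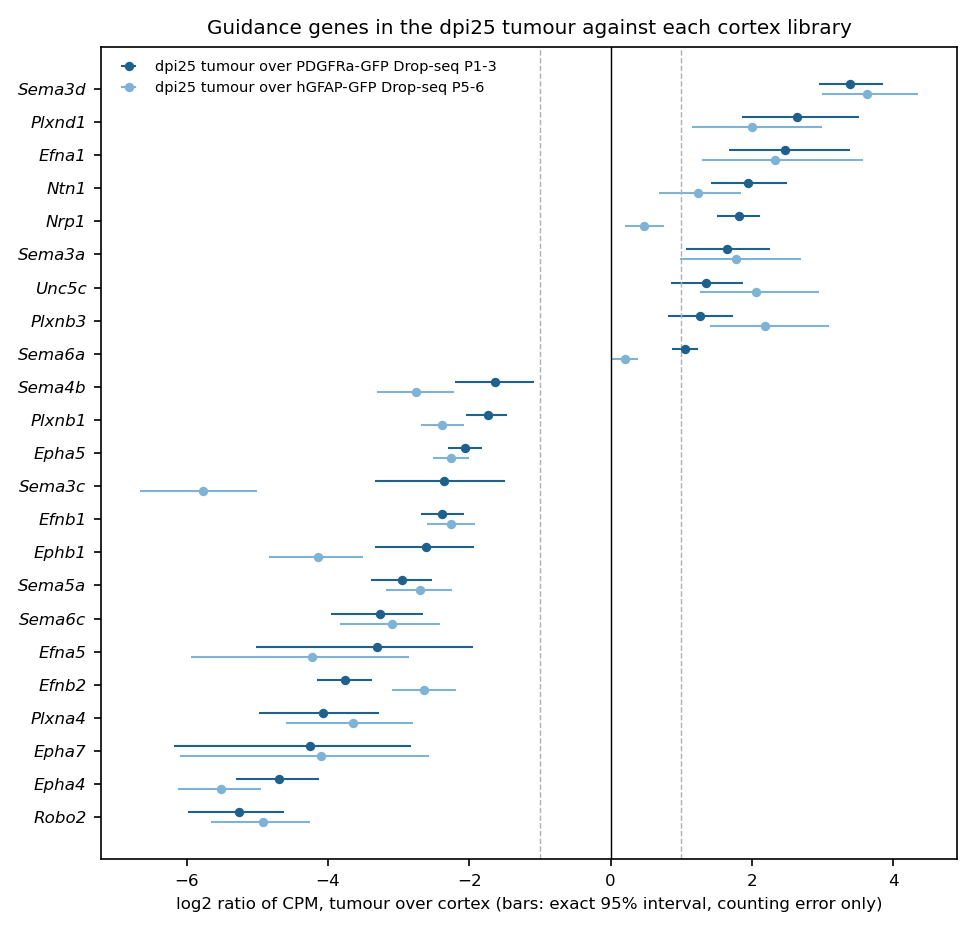
Log2 ratio of CPM in the dpi 25 tumour library over each cortical Drop-seq library (x axis) for 23 members (y axis), with exact 95% intervals for counting error and dashed lines at 2-fold. Robo2, Epha4 and Efnb2 lie left of the lower line in both comparisons and Sema3d, Plxnd1 and Efna1 right of the upper line, while Nrp1 passes it against PDGFRa-GFP alone.

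Against hGFAP-GFP cortical cells, most of the same members lay on the same side. Of 56 members tested, 24 were at least 2-fold lower in the dpi 25 library, 42.9% against 20.5% of 14189 genes, and 11 were at least 2-fold higher, 19.6% against 17.2% of all genes. The median log2 ratio was −0.81 over members and 0.01 over all genes, and 8 of 58 other pathway genes tested were higher and 19 lower, with a median of −0.17. Both comparisons use the same tumour library, so they are not independent of each other. The lowest member was Sema3c, a secreted semaphorin, with 1.213 CPM (14 UMIs) at dpi 25 against 66.01 CPM (277 UMIs) in hGFAP-GFP cells, a log2 ratio of −5.77 (interval −6.66 to −5.0). Epha4 and Robo2 had log2 ratios of −5.51 and −4.92, Unc5d had −5.55 on 2 tumour UMIs (interval −8.65 to −3.58), and Ephb1, an EphB receptor, had 1.992 CPM against 35.03 CPM, a log2 ratio of −4.14. Sema4b and Plxnb1 had log2 ratios of −2.75 and −2.38. Sema3d was again higher, with a log2 ratio of 3.63 (interval 2.99 to 4.35), as were Efna1 at 2.32, Plxnb3 at 2.19, Unc5c at 2.05 and Plxnd1 at 2.0. Nrp1, at 0.47, Nrp2, at −0.03, and Sema6a, at 0.21, were within 2-fold of hGFAP-GFP cells. Robo4 had 51 UMIs against 0, which gives a log2 ratio of at least 2.63 with 3 UMIs as the floor of the hGFAP-GFP library. Unc50, 1 of the rows listed apart, is counted among the 11 with a log2 ratio of 1.02.

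The libraries differed in cell types as well. The 14 neuron markers summed to 1016 CPM at dpi 25, with all 14 detected, against 3476 CPM in PDGFRa-GFP and 1963 CPM in hGFAP-GFP cells, where Slc17a7 was at 0. Of 12 neuroblast markers, 9 were listed at dpi 25, without Dlx2, Dlx5 and Sp8, and summed to 316.6 CPM, against 5272 and 3263 CPM in the PDGFRa-GFP and hGFAP-GFP libraries, which had all 12. The 12 endothelial markers summed to 249.3 CPM at dpi 25, with all 12 detected, against 36 CPM in PDGFRa-GFP cells, which had 11 and lacked Flt1, and 35.27 CPM in hGFAP-GFP cells. The 12 microglia markers summed to 1445 CPM at dpi 25, 89.26 CPM in PDGFRa-GFP and 16.21 CPM in hGFAP-GFP cells, where C1qb, C1qc and Fcrls were at 0. The 13 macrophage or monocyte markers summed to 3215 CPM at dpi 25, against 23.02 CPM in PDGFRa-GFP cells, where Pf4 was at 0, and 15.73 CPM in hGFAP-GFP cells. The dpi 35 library had every marker of these lists. Its neuron and neuroblast sums were 648.9 and 577.5 CPM. Its endothelial, microglia and macrophage or monocyte sums were 976.1, 15760 and 5449 CPM. The members were therefore recounted without the cells of neuronal, immune, vascular, erythroid, ependymal and choroid plexus classes. This was done for the Drop-seq comparisons alone, so the dpi 35 levels remain those of all cells. In that count of dpi 25 over PDGFRa-GFP, the log2 ratio was −4.6 for Epha4, −3.76 for Robo2, −3.48 for Efnb2, −3.13 for Plxna4, −3.1 for Sema5a and 3.15 for Sema3d, each on the side it had before. Nrp1 was at 0.33, Unc5b at 0.36 and Nrp2 at −0.27, so these receptors were no longer past 2-fold, and 7 members were higher in place of 13. No share over all genes was taken for these recounts, in which fewer members may also have been tested. Efna1 and Plxnd1 stayed past 2-fold, each at 1.86. Against hGFAP-GFP cells the same step gave −3.01 for Sema3c, −1.01 for Nrp1 and −2.03 for Nrp2, with 7 higher in place of 11. Efna1 was at 2.12 there and Plxnd1 at 0.74, within 2-fold. In cycling-like cells alone, a class present in each library and a choice made after the data had been seen, dpi 25 over PDGFRa-GFP gave −4.98 for Epha4, −4.94 for Efnb2 and 0.01 for Nrp1. Robo2 was at −5.73 or lower there, a bound with 3 UMIs as the floor of the tumour count. It had 1 tumour UMI, 0.3353 CPM (interval 0.008488 to 1.868), against 53.22 CPM in PDGFRa-GFP cells. Sema3d was at 5.01 with 64.37 CPM in the tumour against 3 PDGFRa-GFP UMIs, 1.996 CPM (interval 0.4116 to 5.833).

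Between the 2 cortical libraries, the members' shares past 2-fold were not above those of all genes. In PDGFRa-GFP over hGFAP-GFP cells, 1 of 57 members tested was at least 2-fold higher, 1.75% against 4.85% of 13555 genes, and 7 were at least 2-fold lower, 12.3% against 12.7% of all genes. The median log2 ratio was 0.03 over members and 0.04 over all genes, and other pathway genes had 2 higher and 6 lower of 56. Efnb2 was the higher one, with 71.39 CPM in PDGFRa-GFP against 32.89 CPM in hGFAP-GFP cells, a log2 ratio of 1.12 (interval 0.85 to 1.4). Sema3c was the lowest, with 6.245 CPM (51 UMIs) against 66.01 CPM (277 UMIs), a log2 ratio of −3.4 (interval −3.86 to −2.97). Ephb1, Slit2, Nrp2, Nrp1, Ephb3 and Sema4b had log2 ratios between −1.53 and −1.11. The libraries also differ in age, P1 to 3 against P5 to 6, so reporter and age cannot be told apart here. Excitatory neuron precursor markers, 10 of 10 detected in both, summed to 413 CPM in PDGFRa-GFP and 1424 CPM in hGFAP-GFP cells, and astrocyte markers, 17 of 17 in both, to 984.4 and 4760 CPM. Without the neuronal, excitatory precursor, immune, vascular, ependymal and choroid plexus classes, the log2 ratio was −1.39 for Sema3c, −0.88 for Ephb1, −1.34 for Nrp1, −1.76 for Nrp2, −1.48 for Sema4b and 0.82 for Efnb2. Sema3c thus stood nearer to 0, and Ephb1 and Efnb2 came within 2-fold.

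Cells of each droplet library were clustered without the members, and clusters were given a class name ending in "-like" from marker genes. The class levels below are CPM over the summed UMIs of a class. Only named classes were ranked as highest or next, and unnamed clusters were left out of that ranking. Of members with at least 50 UMIs in a library, 11 of 35 in the dpi 25 library were at least 2-fold higher in 1 class than in the next, 31.4% against 14.4% of 11053 genes. At dpi 35 there were 21 of 51, 41.2% against 17.9% of 13576 genes. Of those 21, 7 were led by the neuronal-like class of 30 cells. Ntn4, Sema4b and Efnb2 rested on 2, 4 and 7 UMIs there, with log2 intervals that began at −1.58, −1.15 and −0.58. Plxna4os1, a row listed apart, is counted among the 21. PDGFRa-GFP cells had 12 of 34, 35.3% against 12.7% of 10257 genes, and hGFAP-GFP cells had 7 of 29, 24.1% against 12.1% of 8540 genes. The background genes took part in the clustering and the members did not, so these shares are set side by side as a description. At dpi 25 no neuronal, OPC or astrocyte class could be named at the resolution used, 1, and 7 clusters stayed unnamed, whereas at resolution 2 clusters of 243 and 46 cells took the astrocyte name.

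Robo2 was highest in neuronal-like cells in the 3 libraries where that class was named. In the PDGFRa-GFP library it had 374 UMIs and 230.4 CPM in neuronal-like cells, against 75.73 CPM in astrocyte-like, 53.22 CPM in cycling-like and 14.57 CPM in OPC-like cells. In hGFAP-GFP cells it had 74 UMIs and 206.7 CPM in neuronal-like cells, 55.79 CPM in astrocyte-like cells and 0 UMIs in 83 OPC-like cells. At dpi 35, 30 neuronal-like cells held 13 UMIs or 73.56 CPM of Robo2, while mural or fibroblast-like cells were next with 8.829 CPM and OPC-like cells had 1.132 CPM. At dpi 25 it lay between 0 and 9.145 CPM in every class and cluster. Plxna4 and Sema6c were likewise led by neuronal-like cells in the PDGFRa-GFP library, at 69.62 CPM (113 UMIs) and 61.0 CPM (99 UMIs). Efnb2 had 173.7 CPM in neuronal-like, 92.47 CPM in cycling-like and 18.74 CPM in OPC-like cells there, and 117.3 CPM in neuronal-like against 30.32 CPM in cycling-like cells of the hGFAP-GFP library.

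Sema3c and Epha4 were led by excitatory neuron precursor-like cells, a class named in the hGFAP-GFP library alone. These 82 cells held 252 of the library's 277 Sema3c UMIs, 662.8 CPM, against 13.85 CPM (4 UMIs) in ependymal or choroid plexus-like cells, the next class. After thinning each cell to 1000 UMIs, 46.3% of them had at least 1 Sema3c UMI, against 0 of 83 OPC-like cells, a share whose interval ends at 4.35%, with median depths of 4291 and 4497 UMIs before thinning. Epha4 had 439.3 CPM (167 UMIs) in the same class and 184.4 CPM in neuronal-like cells, Ephb1 had 126.3 CPM (48 UMIs) against 62.99 CPM in astrocyte-like cells, and Nrp2 had 60.5 CPM (23 UMIs) against 23.4 CPM. The fold over the next class was 47.85 for Sema3c (log2 interval 4.21 to 7.47) and only 2.38 for Epha4 and 2.0 for Ephb1.

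Of the named classes, oligodendrocyte-like cells had the highest Plxnb3 and Sema5a levels in the libraries where that class was named. Their part of the UMIs varied. For Plxnb3 they held 21 of 176 UMIs at dpi 25, 349 of 589 at dpi 35 and 32 of 52 in PDGFRa-GFP cells. For Sema5a they held 15 of 55, 338 of 574 and 37 of 301 UMIs in the same order. Plxnb3 had 96.02 CPM (21 UMIs) in those cells at dpi 25, 120.7 CPM (349 UMIs) at dpi 35 and 222.6 CPM (32 UMIs) in the PDGFRa-GFP library, with a fold over the next class of at least 3.67, 7.11 and 9.8 with any class under 3 UMIs set at 3 UMIs. Its OPC-like levels were 11.8 CPM at dpi 35 and 6.246 CPM in PDGFRa-GFP cells. Sema5a had 68.59 CPM (15 UMIs) in oligodendrocyte-like cells at dpi 25, 116.9 CPM (338 UMIs) at dpi 35 and 257.4 CPM (37 UMIs) in PDGFRa-GFP cells, where OPC-like cells had 99.25 CPM. In hGFAP-GFP cells, where no oligodendrocyte class was named, OPC-like cells led with 137.3 CPM. Sema6a was shared more widely, at 126.9 CPM in oligodendrocyte-like, 102.0 CPM in endothelial-like and 89.72 CPM in OPC-like cells at dpi 35, whereas astrocyte-like cells led in both cortical libraries with 234.8 and 306.0 CPM. Sema4d, an activator of immune cells, had 36.58 CPM in oligodendrocyte-like and 25.1 CPM in myeloid-like cells at dpi 25, and 63.3 and 57.27 CPM at dpi 35. Efnb3 was also led by oligodendrocyte-like cells in both tumour libraries, at 164.6 CPM (36 UMIs) and 111.7 CPM (323 UMIs).

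A further set was highest in vessel-like classes of the tumours. Robo4 had 49 of its 51 UMIs at dpi 25 in 84 endothelial-like cells, 182.4 CPM, and 698 of 726 UMIs at dpi 35 in 230 endothelial-like cells, 174.0 CPM. Thinned to 1000 UMIs, 20.2% of endothelial-like and 0.0857% of cycling-like cells at dpi 25 had at least 1 Robo4 UMI, with median depths of 2597.5 and 2262 UMIs before thinning. Plxnd1 had 193.6 CPM in endothelial-like and 95.88 CPM in mural or fibroblast-like cells at dpi 25, and 197.5 and 118.3 CPM at dpi 35. Unc5b, a netrin receptor also known from vessels, was higher in mural or fibroblast-like cells, with 174.3 CPM (20 UMIs) at dpi 25 and 144.8 CPM (82 UMIs) at dpi 35, against 48.4 CPM in endothelial-like and 31.82 CPM in oligodendrocyte-like cells, the next class in each library. Efna1 had 78.18 CPM (21 of its 110 UMIs) and 42.64 CPM (171 of 334 UMIs) in endothelial-like cells at dpi 25 and dpi 35, so many of its UMIs lay elsewhere. Sema7a had 115.4 CPM (31 UMIs) and 145.4 CPM (583 UMIs) in those cells. Known sites were set down as lists for 4 cell types. Endothelial-like or mural or fibroblast-like cells were highest for 6 of 6 vessel members at dpi 25 and 7 of 8 at dpi 35, the exception being Efnb2, and for 0 of 2 in each cortical library, where no such class was named. Some of these leads were not fixed by the counts. At dpi 25 Efnb2 led on 9 UMIs, with a log2 interval over the next class that began at −0.25. At dpi 35 the intervals of Sema3g and Ephb4 began at −0.6 and −0.54. Of the named classes, oligodendrocyte-like cells were highest for 4 of 4 oligodendrocyte members in each tumour library. They were highest for 2 of 3 in PDGFRa-GFP cells and 0 of 2 in hGFAP-GFP cells, which had no such class. An unnamed cluster stood above them for Sema6a at dpi 25, at 173.6 against 96.02 CPM, and for Sema4d at dpi 35, at 79.81 against 63.3 CPM. The Sema6a lead over endothelial-like cells at dpi 25 was 1.07-fold, with a log2 interval of −0.81 to 1.01. Myeloid-like cells were highest for 1 of 3 myeloid members at dpi 25, Plxnb2, and 0 of 4 at dpi 35. Neuronal-like cells were highest for 0 of 3 neuron members at dpi 25, 2 of 7 at dpi 35 and 3 of 6 in each cortical library. No such share was taken over all genes.

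Nrp1 was highest in vessel and immune classes of the tumours. At dpi 25 it had 599.4 CPM (161 UMIs) in endothelial-like and 268.1 CPM (235 UMIs) in myeloid-like cells, against 12.07 CPM in cycling-like cells, and the shares of thinned cells with at least 1 UMI were 36.9%, 23.1% and 1.37%. At dpi 35 it had 316.4 CPM in endothelial-like, 199.5 CPM in mural or fibroblast-like and 169.6 CPM (3261 UMIs) in myeloid-like cells, against 11.8 CPM in OPC-like cells. The cortical OPC-like levels of 11.8 CPM for PDGFRa-GFP and 7.627 CPM for hGFAP-GFP stood near those low tumour classes. Some other cortical classes had more Nrp1. Among hGFAP-GFP cells the excitatory neuron precursor-like class reached 147.3 CPM (56 UMIs) and the astrocyte-like class 79.19 CPM (44 UMIs). For PDGFRa-GFP the ependymal or choroid plexus-like class held 83.94 CPM (22 UMIs) and the astrocyte-like class 37.86 CPM (5 UMIs). Nrp2 had 217.9 CPM in mural or fibroblast-like, 130.3 CPM in endothelial-like and 84.42 CPM in myeloid-like cells at dpi 25. Plxnb2 was highest in myeloid-like cells at dpi 25, with 67.31 CPM, and had 204.5 CPM in ependymal or choroid plexus-like and 104.3 CPM in myeloid-like cells at dpi 35.

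Sema3d was higher in oligodendrocyte-like and cycling-like tumour cells than in endothelial-like and myeloid-like ones. At dpi 25 it had 115.5 CPM in an unnamed cluster led by Cdkn2b, Ccnd2 and Rasl11a, 100.6 CPM in oligodendrocyte-like and 64.37 CPM (192 UMIs) in cycling-like cells, against 3.723 CPM in endothelial-like and 4.563 CPM in myeloid-like cells. At dpi 35 the levels were 72.64 CPM in oligodendrocyte-like, 62.24 CPM (385 UMIs) in OPC-like, 33.78 CPM in astrocyte-like and 25.99 CPM in cycling-like cells, against 0.748 CPM in endothelial-like and 1.925 CPM in myeloid-like cells. Cortical OPC-like cells had 17.35 CPM (25 UMIs) in the PDGFRa-GFP library and 30.51 CPM (12 UMIs) in the hGFAP-GFP library, which are 25 of 46 and 12 of 20 UMIs of the gene. In cycling-like cells of the same libraries Sema3d had 1.996 CPM (3 UMIs) and 4.788 CPM (3 UMIs). Slit2 and Unc5c shared this pattern at dpi 35, with 65.47 and 38.64 CPM in OPC-like cells, 48.56 and 38 CPM in astrocyte-like cells and 1.092 and 1.508 CPM in myeloid-like cells.

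**Figure D3:**
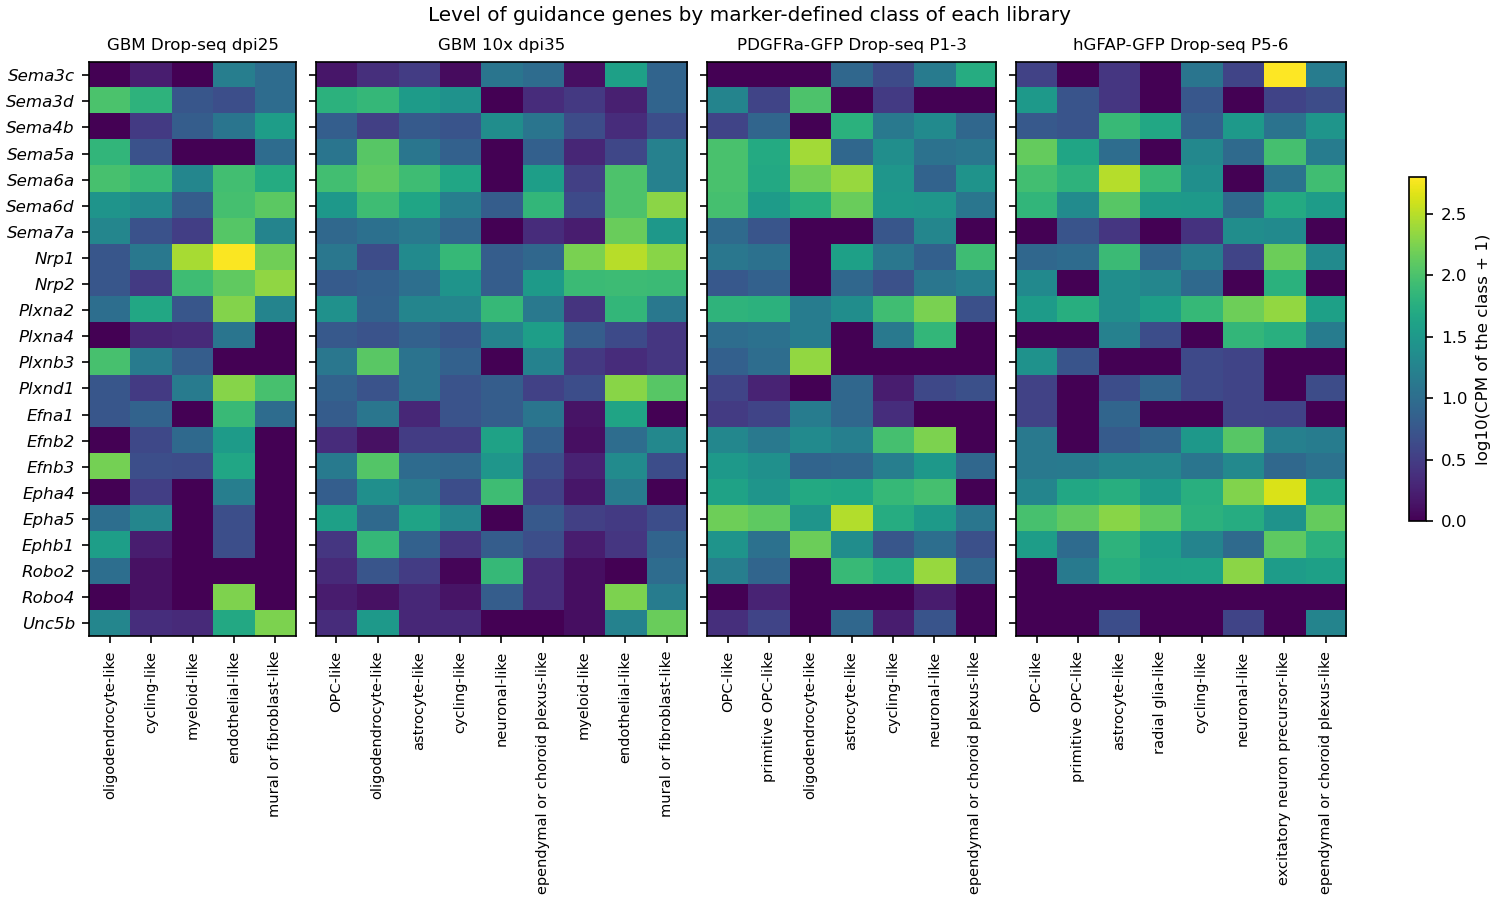
Level of 22 members (rows) in each named class (columns) of the 4 droplet libraries, as log10(CPM + 1) over the summed UMIs of the class. Robo4 stands out in endothelial-like cells of both tumour libraries, Plxnb3 and Sema5a in oligodendrocyte-like cells, Robo2 in neuronal-like cells and Sema3c in the excitatory neuron precursor-like cells of the hGFAP-GFP library.

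The C1 cells gave TPM, a level per transcript length, in single cells at a later and an earlier age of each reporter. The difference used was log2 of the ratio of mean TPM, each with 1 TPM added, which understates low genes, and a member was called at 1 or −1 when its mean over both sets was at least 1 TPM. At P6 compared with P3, PDGFRa-GFP cells had more Sema6a, Sema6d, Sema3d, Sema5a, Epha5 and Robo1 and less Sema6c, Robo2, Efnb2, Sema4b and Plxnb2. Of 43 members tested, 21 were higher at P6, 48.8% against 32.9% of 14848 genes, and 14 were lower, 32.6% against 20.5% of all genes, with a median of 0.99 over members and 0.28 over all genes. Of the rows listed apart, Unc50 is counted among the 21, at 1.19, and Plxna4os1 among the 14, at −3.52. For Plxna4os1, 93.1% of the P3 sum came from 1 cell. Other pathway genes had 13 higher and 13 lower of 52, with a median of −0.06. The P6 cells had a median of 5591 detected genes and the P3 cells 4124.5.

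Among semaphorins, Sema6d, a membrane semaphorin, averaged 300.2 TPM at P6 against 54.23 TPM at P3, with medians over cells of 30.65 and 0 TPM and highest cells at 2784 and 774.6 TPM. It reached 10 TPM in 54.7% of P6 cells (interval 40.4 to 68.4) and 25.0% of P3 cells (interval 14.7 to 37.9), a difference of 2.45 on the log2 scale. Sema6a averaged 112.5 TPM at P6 against 11.18 TPM at P3, where 45.3% and 8.33% of the cells reached 10 TPM, a difference of 3.22. Both semaphorins were raised across many cells, since the highest cell gave 17.5% and 12.5% of the P6 sums. Sema3d had a mean of 45.15 TPM in P6 cells against 6.128 TPM in P3 cells, and 20.8% and 3.33% of the cells reached 10 TPM, but 1 cell gave 91.3% of its P3 sum. For Sema5a the means were 41.17 and 9.249 TPM, with 26.4% of P6 and 8.33% of P3 cells at 10 TPM. Sema4b, a membrane semaphorin, ran the other way, with a mean of 6.248 TPM in P6 cells against 21.14 TPM in P3 cells, 13.2% and 46.7% of the cells reaching 10 TPM, and no single cell dominant at P3, where the highest gave 10.5%. Sema6c had the lowest ratio, −4.66, with 0.8984 TPM at P6 against 46.85 TPM at P3, but reached 10 TPM in 1.89% and 5.0% of cells, and 1 cell gave 59.7% of the P3 sum. Sema3c was listed at 0 in all P6 cells and averaged 7.508 TPM at P3, with 90.3% of the sum in 1 cell.

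Receptors and ephrins of PDGFRa-GFP cells split in the same manner. Robo1 averaged 11.45 TPM at P6 against 0.1477 TPM at P3, and reached 10 TPM in 11.3% of P6 cells and in 0 of 60 P3 cells, a share whose interval ends at 5.96%. Robo2 averaged 19.71 TPM at P6 against 100.7 TPM at P3, with 13.2% and 33.3% of the cells reaching 10 TPM. Both slit receptors thus differed between the ages, in opposite directions. Epha5 averaged 37.94 TPM at P6 and 8.949 TPM at P3, whereas Epha4 stayed at 55.85 and 51.95 TPM. Efnb2 averaged 17.46 TPM at P6 against 61.5 TPM at P3, with 9.43% and 45% of cells at 10 TPM, and Efna5 averaged 7.323 against 65.52 TPM. Plxnb2 averaged 40.82 TPM at P6 and 106.4 TPM at P3, while Plxna3 averaged 56.54 and 15.04 TPM. Ephb2, Ephb3 and Slit2 were called higher at P6, but 94.4%, 90.4% and 82.0% of their P6 sums came from 1 cell each, and 97.1% of the P3 sum of Plxna1, called lower, came from 1 cell.

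The make-up of the 2 PDGFRa-GFP sets differed too. At least 3 OPC markers at 10 TPM were found in 81.1% of P6 and 30.0% of P3 cells, at least 3 neuron markers in 43.4% and 78.3%, and at least 3 neuroblast markers in 35.8% and 76.7%. In the cells with 3 OPC markers alone, 43 at P6 and 18 at P3, the differences were 3.05 for Robo1, 1.92 for Sema6a, 1.73 for Sema6d, 1.4 for Sema3d and 1.13 for Sema5a. Sema6a, Sema6d, Sema3d, Sema5a and Robo1 therefore stayed above 2-fold within those cells. The marker rule does not exclude cells that also carry markers of other types. It also depends on detection, with medians of 5591 and 4124.5 detected genes at P6 and P3. It therefore does not show whether the differences hold within 1 cell type. Epha5 was at 0.73, Sema4b at −0.63, and Robo2 and Efnb2 changed sign to 0.23 and 0.17. Plxnb2 was at −1.43 and Efna5 at −2.01.

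In hGFAP-GFP C1 cells, P4 to P6 compared with P3, Sema6a, Sema6d, Sema5b and Ephb3 were lower and Sema5a, Sema3c and Efna5 higher. Of 45 members tested, 15 were higher at the later age, 33.3% against 25.4% of 12097 genes, and 8 were lower, 17.8% against 25.5% of all genes, with a median of 0.34 over members and 0.03 over all genes. Other pathway genes had 14 higher and 8 lower of 50, with a median of 0.12. Sema6a averaged 26.66 TPM at P4 to P6 against 191.0 TPM at P3, with medians over cells of 0 and 24.18 TPM, and reached 10 TPM in 23% (interval 13.2 to 35.5) and 55.1% (interval 40.2 to 69.3) of cells. Sema5b, a membrane semaphorin, averaged 33.68 TPM at the later age against 95.48 TPM at P3, with 24.6% and 40.8% of cells at 10 TPM. Sema6d averaged 44.86 and 97.57 TPM, in 21.3% and 42.9% of cells, although 63.9% of the later sum came from 1 cell. The 3 membrane semaphorins were thus found in fewer of the later cells, and the EphB receptor Ephb3 likewise, with 3.269 TPM and 4.92% of cells against 40.3 TPM and 16.3%.

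Members called higher at P4 to P6 rested on fewer cells. Sema5a averaged 44.23 TPM at P4 to P6 against 12.1 TPM at P3, in 19.7% and 8.16% of cells at 10 TPM, and Efna5 36.79 against 15.55 TPM, in 14.8% and 6.12%. Sema3c averaged 39.42 against 5.218 TPM, in 14.8% and 4.08% of cells, with 73.5% of the later sum in 1 cell. Robo1, at 50.12 against 4.896 TPM, Sema3d, at 10.54 against 0.1408 TPM, and Ephb1, at 37.52 against 10.47 TPM, drew 95.7%, 80.0% and 66.6% of the later sum from 1 cell each. The means of these 3 genes therefore describe single cells more than the set. Efnb2, Epha4, Robo2, Plxnb2 and Sema4b were within 2-fold, the last in 42.6% of later and 40.8% of P3 cells at 10 TPM.

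The hGFAP-GFP sets differed in markers in a way unlike the PDGFRa-GFP ones. At least 3 astrocyte markers at 10 TPM were found in 41% of P4 to P6 and 77.6% of P3 cells, neuron markers in 55.7% and 16.3%, neuroblast markers in 62.3% and 20.4%, and OPC markers in 44.3% and 65.3%. In cells with 3 astrocyte or radial glia markers, 55 at P4 to P6 and 48 at P3, the differences were −2.68 for Sema6a, −1.37 for Sema5b and −1.0 for Sema6d, close to −2.8, −1.48 and −1.1 over all cells. That step kept 90.2% of P4 to P6 and 98.0% of P3 cells, so it could hardly move the values. It therefore does not show whether the differences hold within 1 cell type. The gene counts per cell were near each other, with medians of 3405 detected genes at P4 to P6 and 3768 at P3.

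**Figure D4:**
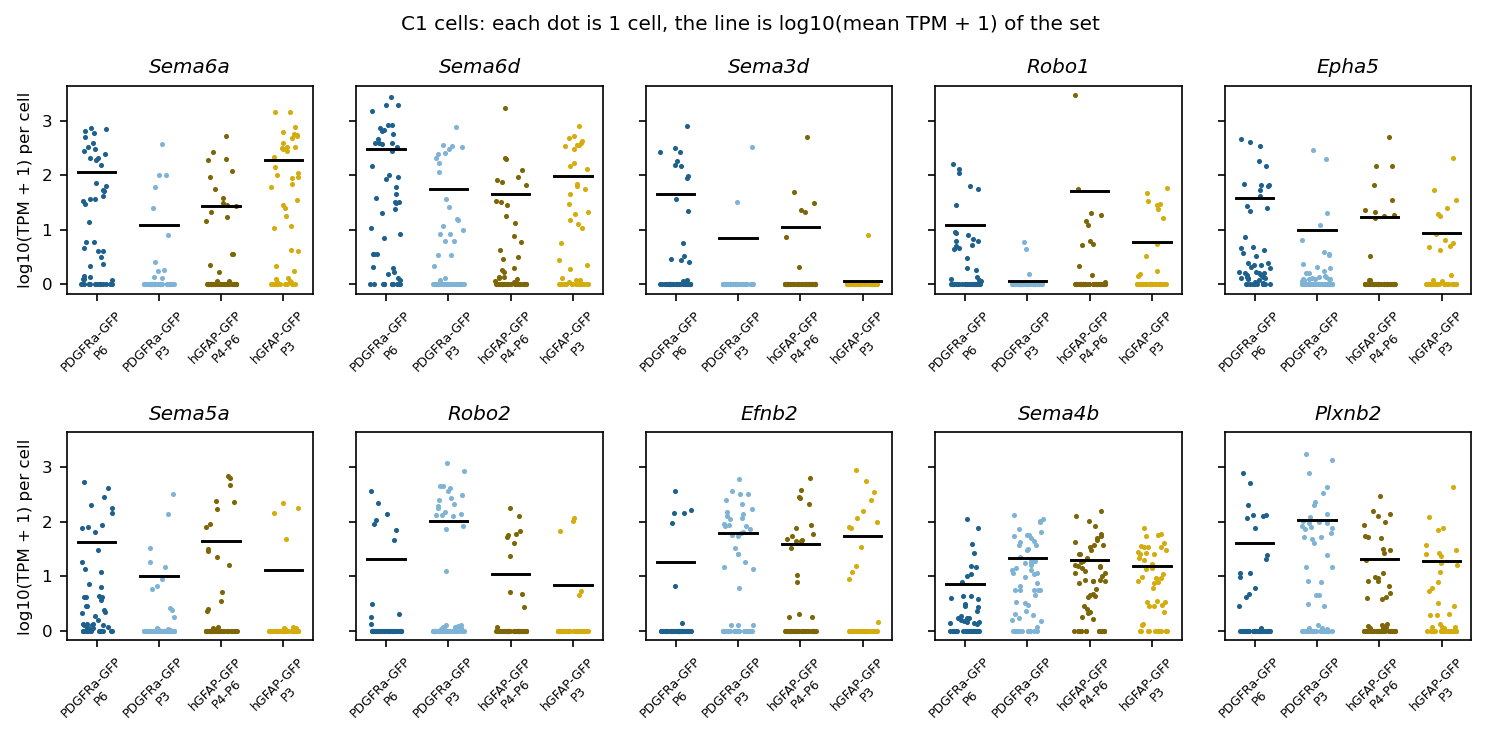
Level of 10 members in single C1 cells as log10(TPM + 1) (y axis), 1 dot per cell, with the P6 and P3 sets of PDGFRa-GFP left of the P4 to P6 and P3 sets of hGFAP-GFP (x axis), with a line at log10 of the mean TPM + 1. Sema6a and Sema6d dots reach 10 TPM in more P6 than P3 cells of PDGFRa-GFP, 45.3% against 8.33% for Sema6a, and in fewer later than P3 cells of hGFAP-GFP.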

How the data were processed

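The Drop-seq values the authors deposited are a scaled signal, with the UMI counts of each cell brought to a sum of 10000 after alignment with STAR, as the submitters' processing notes name it. Division gave back whole UMI counts in 100% of the cells, counting a cell when 99% or more of its values lay within 0.1 of a whole number. The deposited 10x values are counts, with Cell Ranger named in the notes, and the deposited C1 values are TPM, with RSEM named there. The 2 C1 tables were set up separately and no level was compared across them. The deposited ATAC list gives each peak a score, a fold ratio over background and a −log10 q. Its tools by the notes were Bowtie2, MACS2 2.12 and HOMER, and the notes list mm10 beside rn5. The tables hold 4955 of 6796 labelled cells at dpi 25 and 815 of 2000 in hGFAP-GFP, and the rule for the difference is not given in the sources used here. The depth of the C1 cells is unknown, since no read counts of them were used.

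Counts were summed per library and class, and exact Poisson, conditional and Clopper-Pearson 95% intervals were computed (scipy 1.17.1). UMIs are molecules of 1 library, so intervals cover counting error only. Cells with at least 200 genes were clustered per library (scanpy 1.11.5, leidenalg 0.10.2) on 2000 variable genes that left out the members, 30 components and 15 neighbours, at resolution 1. A class needed at least 3 of its markers among 50 leading genes, at least 1 among the first 10 and no other class with more there. This scoring rule was settled after clusters had been seen. Doublets were called by Scrublet in 5 PDGFRa-GFP, 4 hGFAP-GFP, 0 dpi 25 and 125 dpi 35 cells, and so few in the Drop-seq libraries that doublets there remain unassessed. No barcode was shared among the Drop-seq libraries. The count steps were tested on simulated data.

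Members and lists were chosen with earlier results of these data known. Named genes were the members with the largest and smallest ratios at adequate depth, with a list of 24 members of known cell sites, and other members were named after their values had been seen. Alternatives covered filters, scaling (edgeR 4.0.16, DESeq2 1.42.0), thinning, classes, resolution and pseudocounts. Promoter windows came from RefSeq (GRCm38.p6), and no genome or protein sequence was used.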

Additional observations from a re-analysis of the deposited data

Results flagged for a closer look

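In 5 members the later C1 set differed from the P3 set in opposite directions in the PDGFRa-GFP and hGFAP-GFP cells, each by more than 2-fold on the log2(mean TPM + 1) scale. The difference between the reporters was not tested, since each set is 1 sample. Sema6a was at 3.22 for P6 over P3 in PDGFRa-GFP cells and at −2.8 for P4 to P6 over P3 in hGFAP-GFP cells. Sema6d stood at 2.45 among the PDGFRa-GFP sets and at −1.1 among the hGFAP-GFP sets. For both genes the shares of cells at 10 TPM ran the same way as the means, as given above. Efna5 ran the reverse way, at −3.0 among the PDGFRa-GFP and 1.19 among the hGFAP-GFP sets. Ephb2, at 2.31 and −2.38, drew 94.4% of the PDGFRa-GFP P6 sum and 95.8% of the hGFAP-GFP P3 sum from 1 cell each. Ephb3, at 1.87 and −3.27, drew 90.4% of the PDGFRa-GFP P6 sum from 1 cell and 53.3% of the hGFAP-GFP P3 sum from 1 cell. The marker make-up moved in opposite directions as well, with OPC-marked cells at 81.1% of P6 and 30.0% of P3 in PDGFRa-GFP and 44.3% of P4 to P6 and 65.3% of P3 in hGFAP-GFP cells, and its part in these differences was not tested. Within OPC-marked PDGFRa-GFP cells Sema6a was at 1.92 and Sema6d at 1.73.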

How the results depend on the processing

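No paired analysis was possible because each droplet group is 1 library and the C1 numbers name cells of 1 sample, and for the same reason no replicate could be left out. For dpi 25 over PDGFRa-GFP, the 13 higher and 29 lower members became 19 lower with at least 100 UMIs, 7 higher without neuronal, immune, vascular, erythroid, ependymal and choroid plexus classes, and 8 higher and 17 lower in cycling-like cells alone. For dpi 25 over hGFAP-GFP, the 11 higher and 24 lower became 14 lower with at least 100 UMIs, 7 higher with cells thinned to 1000 UMIs, 7 higher without those classes, and 5 higher and 12 lower in cycling-like cells. For PDGFRa-GFP over hGFAP-GFP, the 1 higher and 7 lower became 2 higher with no filter, with TMM or DESeq2 scaling, with thinning and without those classes, 3 higher and 1 lower in cycling-like cells, and 2 higher and 0 lower in OPC-like cells. TMM moved the median of all genes by 0.07, 0.25 and 0.14 on the log2 scale in the 3 comparisons and DESeq2 size factors by 0.14, 0.27 and 0.13. In the C1 sets, 21 higher and 14 lower in PDGFRa-GFP became 8 and 6 with a pseudocount of 10, 7 and 4 with the mean of log2 values, and 5 lower in OPC-marked cells. In hGFAP-GFP, 15 and 8 became 5 and 3 with a pseudocount of 10 and 0 and 3 with the mean of log2 values. In these recounts the number of members tested can change with the filter or the cells kept. No share over all genes was taken under these settings, so a smaller count need not be a smaller share. The hGFAP-GFP class count of 7 became 11 at resolution 0.5 and 11 with members of at least 20 UMIs, and the ATAC count of 61 became 15 at −log10 q of at least 10.

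Signs turned for these members past 2-fold: Nrp2 in dpi 25 over PDGFRa-GFP, at −0.27 without those classes; Sema4b in PDGFRa-GFP over hGFAP-GFP, at 0.99 in cycling-like cells, and Nrp1, at 0.63 in OPC-like cells. In the C1 PDGFRa-GFP sets Plxna1 and Unc5c stood at 0.19 and 0.35 with the mean of log2 values, and in OPC-marked cells Efnb2 stood at 0.17, Plxna1 at 0.44, Robo2 at 0.23 and Plxnc1 at −0.95. In the C1 hGFAP-GFP sets Ephb2 and Robo1 stood at 0.15 and −0.14 with the mean of log2 values. The cause was not tested. Other values of single members were judged against the counting interval in the droplet libraries and against a fixed log2 step in the C1 sets. By these limits, 637 values stayed and 171 moved. Among these, 24 values of members within 2-fold changed sign, such as Nrp1 in dpi 25 over hGFAP-GFP, at −1.01 without those classes, and, in PDGFRa-GFP over hGFAP-GFP, Epha4 at 1.18 and Sema6a at 0.16 in OPC-like cells. The choices of cycling-like and OPC-like cells alone were made after the data had been seen. Members under 20 UMIs, and classes with few cells, limit what could be seen: 3 UMIs correspond to 0.367 CPM in PDGFRa-GFP and 0.715 CPM in hGFAP-GFP cells.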

Other observations

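Plxna4os1, 1 of the rows listed apart, is named as lying opposite to Plxna4. In the 10x tumour library it had 929 UMIs (18.15 CPM), of which 659 lay in myeloid-like cells at 34.28 CPM. Plxna4 itself had 290 UMIs (5.665 CPM) there and was highest in ependymal or choroid plexus-like cells, at 36.38 CPM (29 UMIs). Whether the counting used strand is not given in the sources used here, so reads of the pair may be mixed. Unc50, whose protein is not a guidance receptor, had 96.67 and 55.01 CPM in the dpi 25 and dpi 35 libraries, against 53.39 and 47.66 CPM in PDGFRa-GFP and hGFAP-GFP cells.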
